A study of Mus musculus with 2 samples.

Results

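The phagocyte NADPH oxidase makes superoxide by passing electrons from NADPH across a membrane to oxygen. Its catalytic core is a membrane pair, gp91phox and p22phox, which is silent until cytosolic subunits and a Rac GTPase move to it. Neutrophils use the enzyme for the respiratory burst against microbes, macrophages use it in phagosomes and for signalling, and inherited loss of its subunits causes chronic granulomatous disease. The expression of 4 of its subunit genes was measured, chosen by name from the 31053 genes listed: Cybb (gp91phox, the catalytic membrane subunit), Cyba (p22phox, its membrane partner), Ncf1 (p47phox, the cytosolic organizer) and Ncf4 (p40phox, a cytosolic subunit that binds a phosphoinositide of phagosome membranes).

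The cells were cultures of bone marrow derived macrophages from 129Sv mice, grown with 50 ng/ml M-CSF in 10% FBS. Cells of 1 group received, on day 7, 1 µg/ml of truncated Tamm-Horsfall protein for 18 h. Cells of the other group received the vehicle, 5% dextrose, for the same time. The number of mice and cultures behind each library is not given in the labels. Tamm-Horsfall protein, abbreviated THP here and also called uromodulin, is a protein made by kidney tubules, and the abbreviation does not refer to the THP-1 cell line. There was 1 library per group, so no test was possible, no difference between the libraries has a replicate check, and treatment cannot be told apart from culture dish or library preparation.

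Each library was a Chromium droplet library in which each captured RNA molecule carries a barcode of its droplet and a molecular tag of its own (unique molecular identifier, UMI). The THP library kept 12123 cells with 224825484 UMIs and the vehicle library 10978 cells with 207662132 UMIs, with medians of 16113 and 17223 UMIs per cell. Both libraries held 42 barcodes in common, 38 of them among kept cells, and the ratios over all kept cells without them were 0.02 for Cybb, 0.22 for Cyba, -0.17 for Ncf1 and 0.22 for Ncf4 on the log2 scale, the same to that precision as with them. Levels are UMIs summed over cells per 1e+06 UMIs (CPM), and the 95% intervals given are exact and cover counting error only. Cells were sorted by computation into 12 marker gates, each named for a fixed list of marker genes that held none of the 4 subunit genes, and 16160 of 23101 kept cells entered a gate. A gate name stands for a marker score, not for a purified cell type. Of the kept cells, 4223 (18.3%) lay within 0.1 of a gate limit. Some leading genes named for a gate are its own markers, which lead it by construction and are no separate support for its name. These are C1qa, Ltf, Camp, Ngp, Retnlg, Cxcr2, Atp6v0d2, Dcstamp, Col1a1 and Sparc, while Vsig4, Marco and Gpnmb were not markers. The label of the samples is macrophage: cells of the macrophage gate, with Vsig4, C1qa and Marco among its leading genes, numbered 2424 with THP and 1607 with vehicle, and neutrophil, progenitor, monocyte and other gates held the remaining gated cells.

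The genes lie on 4 chromosomes of the mouse genome build GRCm38 (GENCODE M21 annotation). Cybb (ENSMUSG00000015340) spans positions 9435252 to 9487771 of chromosome X on the minus strand, Cyba (ENSMUSG00000006519) positions 122424776 to 122432930 of chromosome 8 on the minus strand, Ncf1 (ENSMUSG00000015950) positions 134220053 to 134229625 of chromosome 5 on the minus strand, and Ncf4 (ENSMUSG00000071715) positions 78244801 to 78262580 of chromosome 15 on the plus strand. Their longest annotated transcripts are 4752 bases for Cybb, 744 for Cyba, 2882 for Ncf1 and 1464 for Ncf4. Cyba overlaps Gm20388 on the other strand, which had 0 UMIs in both libraries, and Ncf1 overlaps Gtf2ird2 on the other strand, which had 487 UMIs with THP and 607 with vehicle, against 39371 and 40973 for Ncf1. The strand setting of counting is not stated, so UMIs from the overlap of Ncf1 and Gtf2ird2 cannot be told apart.

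Because the genes share high levels in neutrophil gates, the sequence at the annotated start was taken from RefSeq (GRCm38.p6) for the members matched there, Cybb, Cyba and Ncf1. Each line gives 250 bases before the start and 20 after it, on the strand of the gene. Cybb is the window chrX:9469305-9469574, Cyba chr8:122432921-122433190 and Ncf1 chr5:134229606-134229875, each on the minus strand. The Cybb window lies inside the GENCODE span of the gene, which on this strand begins at position 9487771. Motif positions in Cybb are therefore counted from the RefSeq start only. Capitals mark matches to 3 motifs searched on both strands: the PU.1 core GAGGAA, the C/EBP half-site pair TTGCNNAA and a 10-base ETS-IRF composite.
Cybb: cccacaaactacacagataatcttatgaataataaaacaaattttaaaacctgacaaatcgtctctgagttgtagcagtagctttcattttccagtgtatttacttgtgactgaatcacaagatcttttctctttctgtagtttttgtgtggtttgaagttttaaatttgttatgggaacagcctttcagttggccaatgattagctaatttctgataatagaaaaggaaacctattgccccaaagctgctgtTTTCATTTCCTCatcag
Cyba: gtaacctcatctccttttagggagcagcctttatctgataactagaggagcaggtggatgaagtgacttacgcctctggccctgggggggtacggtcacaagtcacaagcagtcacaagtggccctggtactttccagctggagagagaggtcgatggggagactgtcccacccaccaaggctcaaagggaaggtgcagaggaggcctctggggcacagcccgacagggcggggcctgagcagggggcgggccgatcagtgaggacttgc
Ncf1: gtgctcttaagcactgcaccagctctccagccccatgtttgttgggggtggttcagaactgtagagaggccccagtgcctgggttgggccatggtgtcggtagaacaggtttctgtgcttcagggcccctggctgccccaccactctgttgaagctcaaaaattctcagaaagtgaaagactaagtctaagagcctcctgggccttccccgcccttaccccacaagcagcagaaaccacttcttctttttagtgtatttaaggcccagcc
The Cybb window held the ETS-IRF composite at positions 4 to 13 and the PU.1 core at positions 10 to 15 after the start, both on the strand opposite to the one printed, and the matches overlap. The composite was present in 2.466% of the 32841 RefSeq windows of the same length, the PU.1 core in 25.07% and the C/EBP motif in 10.14%. Cyba and Ncf1 held none of the 3 motifs in these windows. The Cybb window was also the poorest in G and C, at 34.07%, against 60% for Cyba and 54.07% for Ncf1. A match is a description of letters and says nothing about binding in these cells.

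Over all kept cells, the 4 genes differed little between the libraries. Cybb stood at 566 CPM (563 to 569) with THP and 556 CPM (553 to 560) with vehicle, from 127264 and 115558 UMIs, a log2 ratio of 0.02 (0.013 to 0.036). Cyba stood at 1900 CPM (1894 to 1906) with THP and 1632 CPM (1627 to 1638) with vehicle, a log2 ratio of 0.22 (0.212 to 0.225). The membrane partner was thus 1.16-fold higher with THP, and the catalytic subunit 1.02-fold higher.

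The cytosolic genes diverged in direction. Ncf1 stood at 175 CPM (173 to 177) with THP and 197 CPM (195 to 199) with vehicle, a log2 ratio of -0.17 (-0.192 to -0.152). Ncf4 stood at 392 CPM (390 to 395) with THP and 336 CPM (334 to 339) with vehicle, a log2 ratio of 0.22 (0.208 to 0.236). None of the intervals of the ratios reached 0, which at this depth says only that counting error is small.

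Past a 2-fold difference at a minimum of 10 CPM, 0 of the 4 genes were counted, against 3.88% of the 8012 genes at that minimum (0.911% higher and 2.97% lower with THP, or 73 and 238 genes; with TMM factors 118 were higher and 84 lower). Past 1.5-fold, 0 of 4 were counted as well, against 19.6% of genes. The median log2 ratio of those 8012 genes was -0.18, so Ncf1 lay at the median (51.0% of genes had a lower ratio), Cybb above it (70.2%) and Cyba and Ncf4 well above it (88.2% and 88.3%). All 4 lay inside the central 95% of genes, -1.04 to 0.56.

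How the libraries are put on a common scale moved each of these ratios by more than counting error. With TMM factors from edgeR, which moved the median of all genes to 0.03, the log2 ratios were 0.24 for Cybb, 0.44 for Cyba, 0.048 for Ncf1 and 0.44 for Ncf4, so Ncf1 changed sign. Ratios also differed between transcript lengths: genes in the length bin of Cyba, the shortest of the 4, had a median of 0.19, and those in the bin of Cybb, the longest, a median of -0.37. With the median of its length bin taken off, Cyba was at 0.032, Ncf1 at -0.041, Ncf4 at 0.16 and Cybb at 0.40. The order of the genes therefore turned with this correction, Cybb becoming the highest and Cyba losing nearly all of its difference; the part of transcript length in the result was not tested. With the same weight for each cell, Cybb was at -0.078, and with the same mix of gates in both libraries at 0.072, so its direction over all cells turned with the weight given to each cell.

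**Figure D1:**
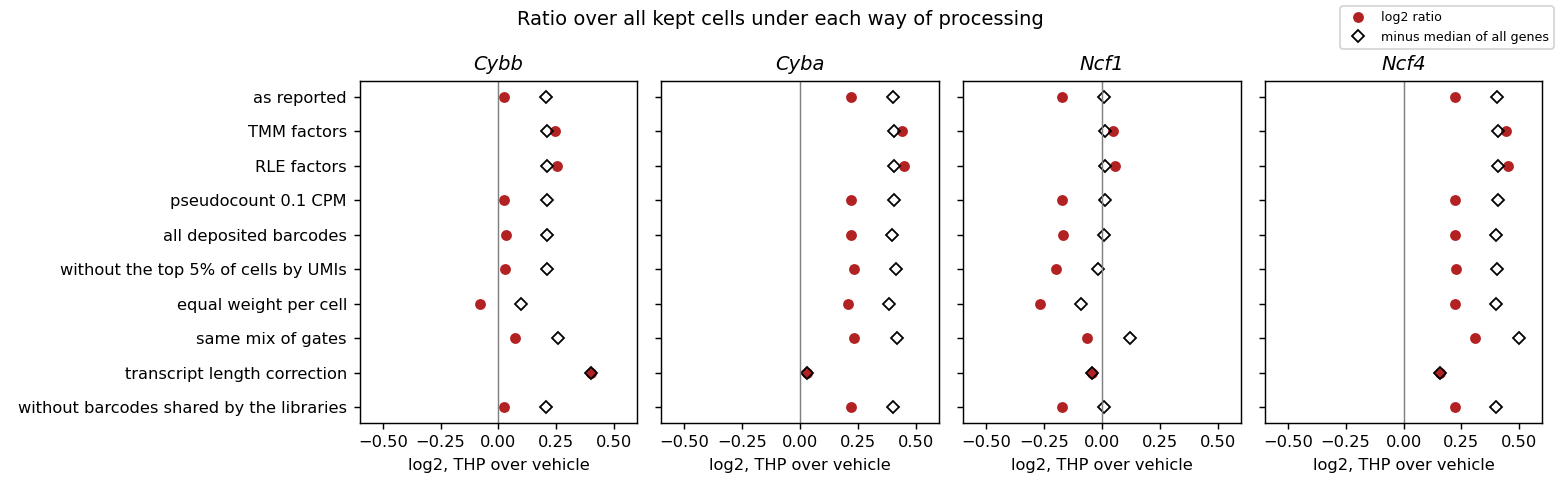
Log2 ratio of each subunit gene, THP over vehicle, over all kept cells (filled points) and the same minus the median of all genes (open diamonds), for each way of processing on the vertical axis. Cyba runs from 0.032 after the length correction to 0.45 with RLE factors, Cybb from -0.078 to 0.40, Ncf1 from -0.27 to 0.057 and Ncf4 from 0.16 to 0.45.

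Across gates the genes differed far more than between libraries. CPM is a share of the UMIs of a gate, so the orders of gates given here are not orders of UMIs per cell. Median UMIs per cell were 2112.5 with THP and 1874 with vehicle in mature neutrophils. They were 5665.5 and 6109.5 in immature neutrophils and 21444.5 and 21953 in macrophages. Cybb was highest in the immature neutrophil gate (leading genes Ltf, Camp and Ngp), at 1749 CPM with THP and 1938 with vehicle, followed by the mature neutrophil gate (Retnlg, Cxcr2), at 1219 and 1060 CPM. The osteoclast-type macrophage gate (Atp6v0d2, Dcstamp, Gpnmb) came next, at 801 and 917 CPM. Behind these stood the monocyte gate (670 and 496 CPM), the MHC class II-high gate (556 and 487 CPM), the macrophage gate (506 and 440 CPM) and the myeloid progenitor gate (450 and 343 CPM). In the vehicle library the counting intervals of monocyte and MHC class II-high cells overlapped, and no neighbours among these 7 gates overlapped in the THP library once the B lineage gate, which ties with MHC class II-high cells, is left aside. The immature neutrophil gate gave 10.2% of all Cybb UMIs with THP and 17.0% with vehicle.

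Cyba had another order. It was highest in the osteoclast-type macrophage gate, at 3416 CPM with THP and 2830 with vehicle, above the immature neutrophil gate (2903 and 2598 CPM) and the mature neutrophil gate (2377 and 2043 CPM). Monocyte, MHC class II-high and macrophage cells stood between 1708 and 1917 CPM with THP and between 1446 and 1632 CPM with vehicle. Cyba is made in many tissues, where it also partners other NADPH oxidases. In the stromal gate (Col1a1, Sparc) it stood at 760 and 589 CPM.

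Ncf1, which organizes the cytosolic subunits at the membrane, was highest in the neutrophil gates. It stood at 691 CPM with THP and 660 with vehicle in mature neutrophils and at 561 and 625 CPM in immature neutrophils, while no other gate with at least 50 cells in each library exceeded 212 CPM with THP or 230 with vehicle, both in myeloid progenitors. Macrophage cells stood at 144 and 142 CPM. The osteoclast-type gate, where Cyba peaked, was among the lowest for Ncf1, at 102 and 120 CPM.

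Ncf4 also led in the neutrophil gates, at 822 and 614 CPM in mature and 740 and 631 CPM in immature neutrophils, whose intervals overlapped in the vehicle library. The monocyte gate followed at 562 and 435 CPM, then the osteoclast-type gate at 440 and 388 CPM and the progenitor gate at 430 and 343 CPM. The macrophage gate was low among myeloid gates, at 292 CPM with THP and 220 with vehicle.

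**Figure D2:**
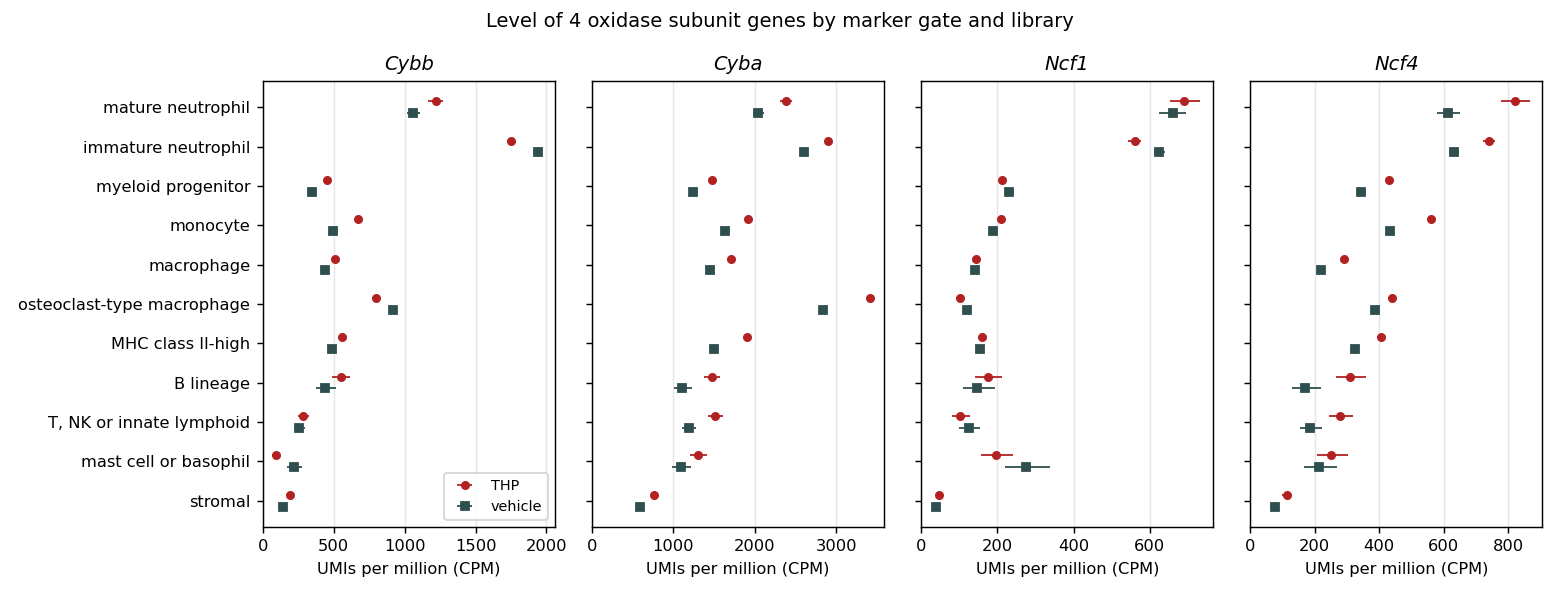
Level of each subunit gene in CPM (horizontal axis, from 0) in each marker gate, for the THP library (circles) and the vehicle library (squares), with exact Poisson 95% intervals as bars. Neutrophil gates lead for Cybb, Ncf1 and Ncf4, the osteoclast-type gate leads for Cyba (3416 and 2830 CPM), and the stromal gate is lowest or near lowest throughout.

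The balance of subunit transcripts therefore shifted between gates. In the osteoclast-type gate there were 7.87 Cybb UMIs per Ncf1 UMI with THP and 7.65 with vehicle, against 3.52 and 3.11 in macrophages, 3.12 and 3.099 in immature neutrophils and 1.76 and 1.61 in mature neutrophils. The ratio is read only between gates, since the transcripts of the genes are not captured alike. In myeloid progenitors it was 2.12 with THP and 1.49 with vehicle. Mast cells or basophils, too few for a comparison between libraries (55 and 33 cells), had Cybb at 89.98 CPM and Ncf1 at 196 CPM with THP, from 40 and 87 UMIs, and Cybb at 216 CPM and Ncf1 at 275 CPM with vehicle, from 70 and 89 UMIs.

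Transcripts of all 4 genes were also found in the stromal, B lineage and T, NK or innate lymphoid gates. In stromal cells the 4 genes stood at 26.4% to 40.0% of their level over all cells with THP and at 19.3% to 36.1% with vehicle. Markers of macrophages were detected there too, 9 of 9 in each library, with a summed level of 1072 CPM with THP and 694 with vehicle, against 4007 and 4347 CPM in the macrophage gate. Markers of mature neutrophils summed to 229 and 79.3 CPM in the stromal gate, and its own 7 stromal markers to 7043 CPM with THP and 16387 with vehicle. The B lineage gate held macrophage markers at 4103 and 6649 CPM, as high as macrophages, so its subunit values are not those of B cells alone. The T, NK or innate lymphoid gate held them at 1244 and 602 CPM. Markers of other types also differed between the libraries in myeloid gates. The 9 macrophage markers summed to 313 CPM with THP and 158 with vehicle in immature neutrophils, 354 and 186 CPM in progenitors and 539 and 326 CPM in mature neutrophils, where 1 of the 9 was at 0 with THP. In mature neutrophils the gate's own markers summed to 15284 and 21369 CPM and those of immature neutrophils to 24996 and 19834 CPM. The part of RNA from other cells, or of a different mix of cells within a gate, in the subunit values and ratios of any gate was not tested.

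Within gates, Cyba and Ncf4 were higher in the THP library in each of the 10 gates with at least 50 cells in both libraries. The log2 ratio of Cyba ran from 0.16 in immature neutrophils to 0.41 in the B lineage gate, and was 0.24 (0.226 to 0.255) in macrophages, at 1708 against 1446 CPM. That of Ncf4 ran from 0.18 in osteoclast-type cells to 0.86 in the B lineage gate, the latter from 181 and 59 UMIs, and was 0.41 (0.373 to 0.446) in macrophages. The counting interval lay above 0 in 10 of 10 gates for both genes. Between 29.5% and 45.6% of all genes were above 0 in these gates, and 0 of 4 genes passed 2-fold in any of them, against 3.06% of genes in the osteoclast-type gate, 3.27% in monocytes, 3.29% in progenitors, 3.61% in macrophages, 5.21% in MHC class II-high cells, 7.09% in immature neutrophils, 8.7% in stromal cells, 13.4% in T, NK or innate lymphoid cells, 19.6% in mature neutrophils and 22.8% in the B lineage gate. Ungated cells, outside these 10 gates, had log2 ratios of 0.06 for Cybb, 0.22 for Cyba, -0.15 for Ncf1 and 0.26 for Ncf4, with 0 of 4 past 2-fold against 4.52% of genes. After a length correction within each gate, chosen after the data were seen, Cyba was between -0.08 (immature neutrophils) and 0.17 and above 0 in 9 of 10 gates, and Ncf4 between 0.09 and 0.63 and above 0 in 10 of 10.

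Cybb did not move one way. It was higher with THP in 8 of 10 gates, by 0.43 (0.388 to 0.475) in monocytes, 0.39 (0.353 to 0.43) in progenitors and 0.20 (0.175 to 0.228) in macrophages. It was lower in 2 of the 3 gates with the highest Cybb level, at -0.15 (-0.18 to -0.116) in immature neutrophils and -0.20 (-0.228 to -0.164) in osteoclast-type cells. These 2 ratios lay near the median of all genes in their gates, -0.20 and -0.17. Under the length correction within gates all 10 ratios of Cybb were above 0, from 0.20 in osteoclast-type cells to 0.78 in monocytes. With TMM factors within gates the value in immature neutrophils was 0.06. The lowest value with these factors, in osteoclast-type cells, was -0.00034.

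Ncf1 did not move one way either. Its log2 ratio ran from -0.28 in T, NK or innate lymphoid cells to 0.27 in stromal cells, both with intervals that held 0. Against the median of all genes in the same gate, Ncf1 was higher in 8 of 10 gates. It was higher with THP in 6 gates and lower in 4, and the interval lay above 0 only in monocytes, at 0.14 (0.07 to 0.22). The interval lay below 0 in immature neutrophils (-0.16), progenitors (-0.12) and osteoclast-type cells (-0.24). In macrophages it was 0.02 (-0.025 to 0.07), a difference not detectable at this depth. With TMM factors within gates, Ncf1 turned to 0.05 in immature neutrophils and 0.07 in progenitors, and with clusters in place of gates the monocyte value turned to -0.01.

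**Figure D3:**
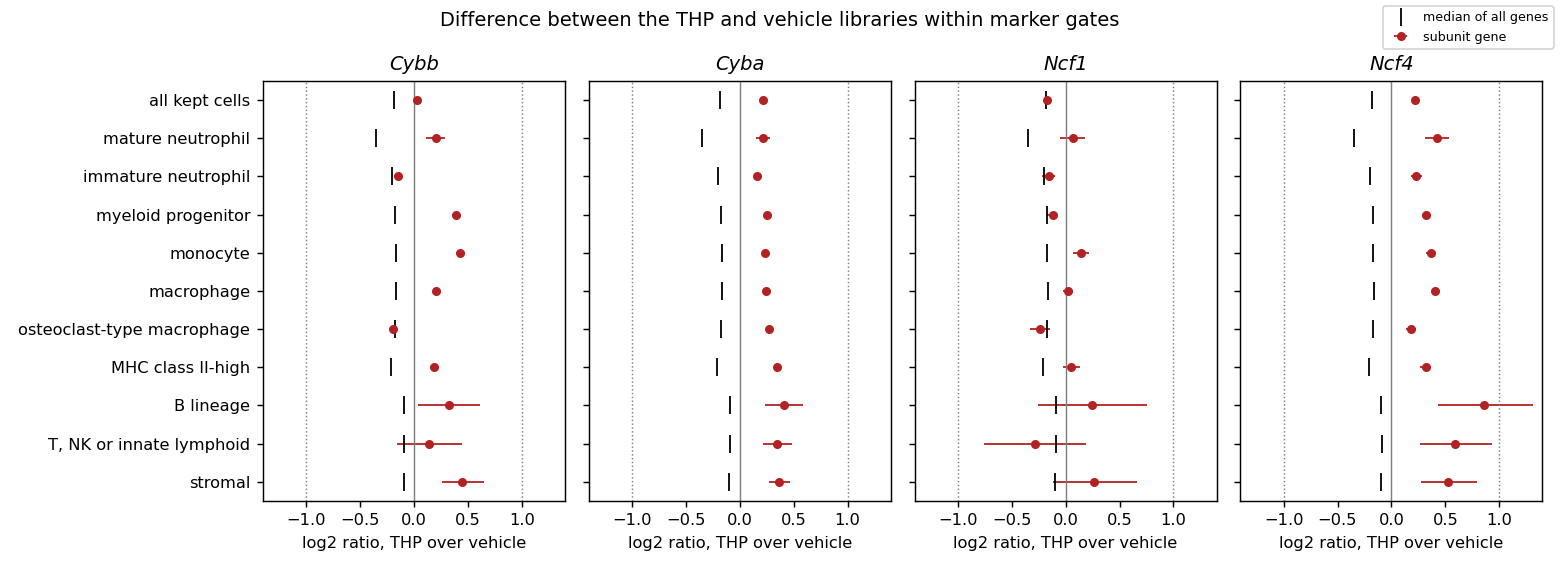
Log2 ratio of each subunit gene, THP over vehicle, over all kept cells and in 10 marker gates (points), with exact 95% intervals for counting error (bars), the median of all genes in the same cells (vertical ticks) and 2-fold limits (dotted). Cyba and Ncf4 lie to the right of 0 in 10 of 10 gates, Cybb in 8 and Ncf1 in 6.

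Single cells showed the spread behind these sums. In the macrophage gate the median cell held 16.2 Cyba UMIs per 10000 with THP (quartiles 13.1 and 20.3) and 13.7 with vehicle (10.8 and 17.0). Ncf4 had a median of 2.66 per 10000 with THP and 2.01 with vehicle, and Cybb 4.63 and 3.82. Ncf1 had medians of 1.29 and 1.24. The spread between cells of 1 library was wider than the shift between libraries for each of the 4 genes, and the whole distribution of Cyba was displaced rather than its upper end alone, with 10th percentiles of 10.2 and 8.27 and 90th percentiles of 24.99 and 20.5.

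In immature neutrophils the median cell held 19.15 Cybb UMIs per 10000 with THP and 20.45 with vehicle, a shift in the direction opposite to that in macrophages. Cyba had medians of 30.4 and 26.6 there, Ncf1 of 5.67 and 6.30, and Ncf4 of 7.52 and 6.28. The median mature neutrophil carried only 2112.5 UMIs in all with THP and 1874 with vehicle, so single-cell levels in that gate are coarse; its Cybb had a median of 7.39 per 10000 with THP and a 10th percentile of 0.

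**Figure D4:**
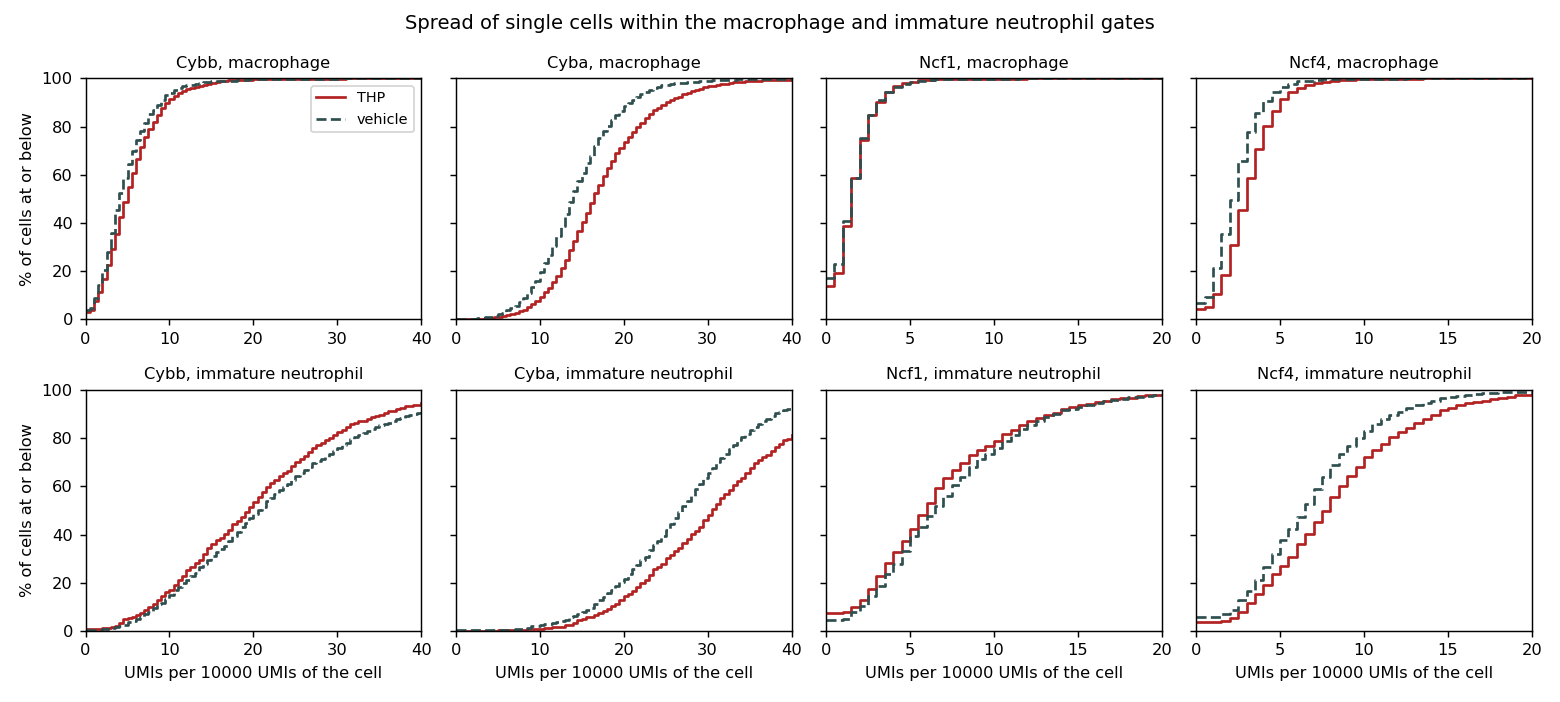
Share of cells at or below a given level (vertical axis, %) against UMIs of the gene per 10000 UMIs of the cell (horizontal axis), in the macrophage gate (top) and the immature neutrophil gate (bottom), for THP (solid) and vehicle (dashed). The THP curve lies to the right for Cyba and Ncf4 in both gates, and for Cybb it lies to the right in macrophages and to the left in immature neutrophils.

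To compare detection across depths, each cell was thinned to 5000 UMIs and shallower cells were left out. All 4 genes were then found together in 32.0% of macrophages with THP (753 of 2355) and 25% with vehicle (394 of 1576); without thinning the shares were 82.6% and 77.2%. Immature neutrophils had all 4 in 87.2% and 84.1%, monocytes in 57.8% and 45.7%, progenitors in 48.7% and 42.4%, and osteoclast-type cells in 33.0% and 32.9%. Without thinning the order differed, with 89.5% and 89.9% of immature neutrophils, 91.6% and 90.9% of monocytes and 91.8% and 92.7% of progenitors. Osteoclast-type cells were then at 82.2% and 88.4%. A gene without a UMI in a thinned cell is therefore not shown to be absent from that cell. Stromal cells, the type taken to lack Cybb, Ncf1 and Ncf4, had all 4 in 4.76% with THP (1.31% to 11.7%) and 2.82% with vehicle (0.343% to 9.81%), at median depths of 21346 and 39385 UMIs. Macrophage median depths were 21444.5 and 21953 UMIs.

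In macrophages Ncf1 was the gene detected in the fewest cells, with a UMI in 49.1% of thinned cells with THP and 48.0% with vehicle, against 10.7% and 11.3% in stromal cells. Ncf4 was found in 73.6% and 62.4% of macrophages (26.2% and 16.9% of stromal cells) and Cybb in 84.2% and 80.8% (34.5% and 29.6% of stromal cells). Cyba was found in 99.8% and 99.7% of macrophages, so its share carries no information on its level. In the mature neutrophil gate only 44 and 45 cells reached 5000 UMIs, of which 95.5% (84.5% to 99.4%) and 82.2% (67.9% to 92.0%) held all 4 genes. Thinned to 2000 UMIs, 52.1% of 355 THP cells and 44.8% of 364 vehicle cells held all 4 genes, and 51.4% and 51.2% of immature neutrophils did.

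**Figure D5:**
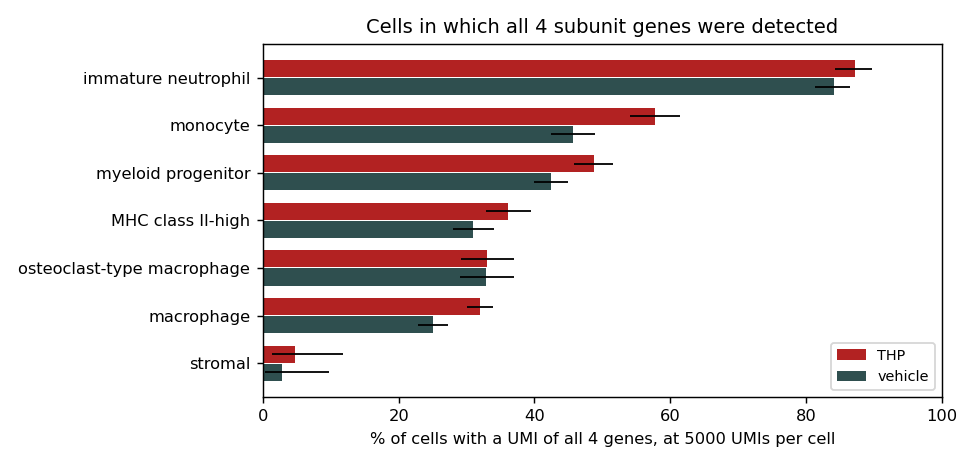
Share of cells (horizontal axis, %) in which all 4 subunit genes had a UMI after thinning to 5000 UMIs, by gate, for the THP and vehicle libraries, with exact binomial 95% intervals (counting error only); the mature neutrophil gate, with 44 and 45 cells at that depth, and the smaller gates other than the stromal one are not drawn. In the gates drawn the shares run from 87.2% and 84.1% in immature neutrophils to 4.76% and 2.82% in stromal cells.

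Over 21 sums of a gate in a library, the levels of the 4 genes rose and fell together to different degrees. Pearson's r of log2(CPM + 1) was 0.87 for Cyba and Ncf4, 0.86 for Ncf1 and Ncf4, 0.82 for Cybb and Cyba, 0.81 for Cybb and Ncf4, 0.71 for Cybb and Ncf1 and 0.63 for Cyba and Ncf1. The sums of 1 library share their depth and free RNA, and the same gates enter from both libraries, so the values are a description. Spearman's rho ordered the pairs otherwise, with Cybb and Cyba highest at 0.90, Cybb and Ncf4 at 0.88, Cyba and Ncf4 at 0.86, Ncf1 and Ncf4 at 0.74, Cybb and Ncf1 at 0.54 and Cyba and Ncf1 at 0.38. By Pearson's r, Ncf4 was the gene whose pattern came nearest to that of Cyba among 7926 genes. The nearest to Cybb was Clec4a2 (r = 0.93), a C-type lectin receptor of myeloid cells, followed by Fgr (0.87), a Src-family kinase, and B430306N03Rik (0.87). Csf2ra (0.87), the alpha chain of the GM-CSF receptor, and Mkrn1 (0.85) followed Ncf4 for Cyba. Ncf1 lay nearest to Cklf (0.95), Ceacam1 (0.93) and Pram1 (0.93), the last an adaptor of myeloid cells. Ncf4 lay nearest to Clec5a (0.94), a myeloid receptor, Igsf6 (0.93) and Spi1 (0.91), which encodes PU.1.

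The other parts and partners of the oxidase did not pass 2-fold either: 0 of 8 genes at 10 CPM, against 3.88% of all genes. Their median log2 ratio was -0.06 on the scale of total UMIs, 0.16 with TMM factors and 0.013 after the length correction, so its direction turned with the scaling. Rac2, the GTPase of the neutrophil enzyme, stood at 479 CPM with THP and 467 with vehicle, and Rac1 at 477 and 460 CPM. Arhgdia, a Rac-binding inhibitor, stood at 476 and 403 CPM (0.24) and Arhgdib at 922 and 992 CPM (-0.10), while Rap1a, which copurifies with the membrane core, stood at 248 and 250 CPM. Of 10 genes for other NADPH oxidases and their partners, only Poldip2 reached 10 CPM (28.7 and 29.4 CPM); Nox1 stood at 1.76 and 0.99 CPM and Nox4 at 0.0089 and 0.077 CPM.

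The list of genes that act upstream of assembly held kinases, exchange factors, lipid kinases and the phospholipase gene Pla2g4a (-0.67). Of its 14 measured genes, 3 were above 0 and 11 below it, where 32.4% of all genes were above 0. The median log2 ratio was -0.55 against -0.18 for all genes, and the list's median was -0.34 with TMM factors and -0.33 after the length correction. Past 2-fold, 2 were lower with THP (2.97% of all genes) and 0 higher (0.911%). These were the Rac exchange factors Tiam1 (19.8 and 47.5 CPM, -1.22) and Vav3 (34.6 and 70.3 CPM, -1.003). With TMM factors Tiam1 stayed past 2-fold at -1.01 and Vav3 did not, at -0.79, and after the length correction both were within 2-fold, at -0.68 and -0.61. Prkcd, a kinase of p47phox, was at 184 and 131 CPM (0.49). Dock2, another Rac exchange factor, was at 92.5 and 157 CPM (-0.76), and Pak1, a kinase that Rac activates, at 53.2 and 101 CPM (-0.92). Akt1 was at 87.7 and 86.1 CPM and Mapk14 at 61.5 and 81.1 CPM.

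Among transcription factors of phagocyte oxidase genes, 0 of 10 measured passed 2-fold over all kept cells, against 3.88% of all genes. Their median log2 ratio was -0.44, or -0.22 with TMM factors and -0.15 after the length correction. The count depended on the scale: Cebpb passed 2-fold with TMM factors (1.07) and Cebpe after the length correction (-1.04). Within gates, Cebpb passed 2-fold in mature (1.24) and immature neutrophils (1.09), against 19.6% and 7.09% of genes there. Spi1 passed it in stromal cells (1.15, against 8.7% of genes). In the B lineage gate Spi1 (1.03) and Elf1 (-1.19) passed it, against 22.8% of genes. Spi1, whose protein PU.1 binds GAGGAA cores of the kind in capitals above, stood at 546 CPM with THP and 396 with vehicle (0.46). Its ratio was above 0 in each of the 10 gates, from 0.03 in immature neutrophils to 1.15 in stromal cells. In the myeloid gates the ratios of Spi1 and Cybb were 0.31 and -0.20 in osteoclast-type cells and 0.22 and 0.39 in progenitors. They were 0.65 and 0.19 in MHC class II-high cells, 0.41 and 0.43 in monocytes and 0.63 and 0.20 in macrophages. Immature neutrophils had 0.03 and -0.15, and mature neutrophils 0.15 and 0.20. A link between the 2 genes was not tested. Cebpb stood at 466 and 258 CPM (0.85, and 1.07 with TMM factors), Irf8, a partner of PU.1 at composite sites, at 104 and 114 CPM (-0.13), Runx1 at 67.6 and 106 CPM (-0.64) and Elf1 at 73.1 and 112 CPM (-0.61).

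For 9 measured enzymes that use or remove superoxide and peroxide, the median log2 ratio was 0.083, or 0.30 with TMM factors and 0.13 after the length correction. Past 2-fold, 1 was higher (0.911% of all genes) and 0 lower (2.97%). This was Sod2, the mitochondrial superoxide dismutase, at 538 CPM with THP and 175 with vehicle, a log2 ratio of 1.61 that was 1.83 with TMM factors and 2.08 after the length correction. In immature neutrophils Sod2 stood at 697 and 86.9 CPM (2.99) and in macrophages at 589 and 202 CPM (1.54), in the same gates where the 4 oxidase genes stayed within 2-fold. Prdx1, Prdx5, Gpx1 and Gpx4, which reduce peroxides, were between 0.07 and 0.18. Mpo, the neutrophil granule peroxidase, stood at 602 and 1047 CPM (-0.80). Within the progenitor gate it stood at 5233 and 5806 CPM (-0.15), but it is a marker of that gate, so its level there is partly set by the gating. Its ratio was -0.65 in mature neutrophils, -0.66 in immature neutrophils, -0.67 in monocytes, -0.86 in macrophages and -1.21 in osteoclast-type cells. It was -3.21 in T, NK or innate lymphoid cells. In MHC class II-high (0.15), stromal (2.40) and B lineage (2.55) cells it was above 0.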

How the data were processed

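Single-cell RNA was measured in 2 libraries of mouse bone marrow cultures, THP and vehicle. The deposited matrices hold raw counts of UMIs per gene and barcode, per the file headers (software version 3.1.0). Cell Ranger, STAR and bcl2fastq and build mm10 are named in the submitters' processing notes, with no role given; the annotation release and strand setting used for counting are not stated there. GENCODE M21 (GRCm38) gave coordinates and transcript lengths. The members and the gene lists were chosen with earlier results of these data known.

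Cells were kept with at least 500 genes, at least 1000 UMIs and at most 10% mitochondrial UMIs. Doublets were not removed; an alternative dropped the 5% of cells with most UMIs. Summed UMIs per 1e+06 UMIs of the same cells gave CPM, with exact Poisson intervals, and the log2 ratio is that of CPM + 1. Intervals on ratios condition on the summed UMIs, and those on shares are exact (Clopper-Pearson); both are at the 95% level. A gene was counted as different at 2-fold with at least 10 CPM in 1 library. No p-value was computed.

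For the 84 markers of 12 types, log1p of UMIs per 10000 was scaled over all cells. A cell took the type with the highest mean score if that was at least 0.5, led by at least 0.25 and at least 3 markers were detected. Gates with at least 50 cells in each library were compared. The alternatives were TMM and RLE factors (edgeR 4.0.16), a pseudocount of 0.1, all barcodes, equal weight per cell, the same mix of gates, a correction by 20 bins of transcript length, stricter gates and joint clusters (scanpy 1.11.5, Leiden resolution 0.5, without the 4 genes and the 311 differing genes). Leaving out shared barcodes and correcting for length within gates were added after seeing the data. Named list genes were the 5 with the highest mean CPM of each list and those past 2-fold; like genes were the 3 with the highest r. The 2-fold rule, the gates and the intervals were run on simulated data. For the gates, cells were drawn from each gate's own mean profile, without ungated cells, doublets or RNA from other cells. That run therefore cannot tell how well a gate matches a cell type.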

Additional observations from a re-analysis of the deposited data

Results flagged for a closer look

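For 2 genes the counting intervals of the log2 ratio lay on opposite sides of 0 in different gates. For Cybb the ratio was 0.45 in the stromal gate and -0.20 in the osteoclast-type macrophage gate, a difference of 0.65. In the stromal gate, macrophage markers summed to 1072 CPM with THP and 694 with vehicle, mature neutrophil markers to 229 and 79.3 CPM, and the gate's own markers to 7043 and 16387 CPM; their part in the Cybb ratio was not tested. For Ncf1 it was 0.14 in monocytes and -0.24 in osteoclast-type cells, a difference of 0.38. With 1 library per group neither difference was tested. After the length correction within gates, chosen after the data were seen, the Cybb ratios were 0.75 and 0.20, on the same side of 0, and the Ncf1 ratios were 0.28 and -0.11. With TMM factors within gates the Cybb ratio in osteoclast-type cells was -0.00034. With clusters in place of gates the monocyte ratio of Ncf1 fell below 0.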

How the results depend on the processing

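Over all kept cells, TMM factors gave log2 ratios of 0.24 for Cybb, 0.44 for Cyba, 0.048 for Ncf1 and 0.44 for Ncf4, and RLE factors 0.25, 0.45, 0.057 and 0.45; Ncf1 changed sign under both. The transcript length correction gave 0.40, 0.032, -0.041 and 0.16. The same mix of gates gave 0.072, 0.23, -0.065 and 0.31. Equal weight per cell gave -0.078 for Cybb, 0.21 for Cyba and -0.27 for Ncf1, with Cybb changing sign. Without the top 5% of cells by UMIs, Cyba was at 0.23 and Ncf1 at -0.20. In these cases the value moved by more than the counting interval, and the cause was not tested. The count of genes past 2-fold, 73 higher and 238 lower with THP, became 118 and 84 with TMM factors, 122 and 82 with RLE factors and 187 and 1387 at a limit of 1.5-fold, where 0 of the 4 genes passed as well on the scale of total UMIs.

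Within gates, 192 values of the 4 genes were computed under alternatives. Of these, 10 changed sign, all of them for Cybb, Cyba or Ncf1, and 103 moved by less than the counting interval. The 2 past 2-fold were both Ncf4 in the B lineage gate, at 1.01 with TMM factors and 1.08 without the top 5% of cells. The latter alternative left 1 gate under 50 cells, and the joint clusters gave 9 classes, with the 2 neutrophil clusters, 1 led by Retnlg and Cxcr2 and 1 by Camp and Ngp, pooled under the same name.

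No paired analysis was possible because each group had 1 library. Counting error is small for sums over a whole library, and the spread between cultures is unknown.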
